A study of Mus musculus with 10 samples.

Results

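The 9 genes described here encode the enzymes that make UDP-GlcNAc through the hexosamine pathway, that place and remove O-GlcNAc on proteins, and that recycle or break down the free sugar. They were taken by symbol (Gfpt1, Gfpt2, Gnpnat1, Pgm3, Uap1, Ogt, Mgea5, Nagk and Gnpda1), and all 9 were found among the 39017 genes of the count table and were among the 15922 genes with enough counts to be tested. The values come from RNA sequencing of polyadenylated RNA from mouse lung tumours, 10 libraries in all. Each of the 5 control libraries was labelled KP (C57BL/6, KrasLSL-G12D/WT; Trp53 Fl/Fl) and each of the 5 Glut1-KO libraries KPG1, which carries in addition Glut1 Fl/Fl. Slc2a1 encodes Glut1, a glucose transporter. The genotype label of the controls reads heterozygous for the floxed allele, whereas the design text calls them Glut1-WT, and the methods state that both kinds of control were used.

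All tumours were started with Ad5CC10-Cre, an adenovirus given into the airways in which the CC10 promoter restricts Cre to cells of the bronchiolar secretory type. All were collected at 20 weeks and 1 day, dissociated and depleted of CD45-positive cells with beads, so other CD45-negative cells of the tumour stayed in the sample. The ages of the mice were not given in the sources used here. All 5 controls were male, whereas Glut1-KO replicates 1 to 3 were female and replicates 4 and 5 male. Each column name also holds a number whose meaning the labels do not give, possibly the animal. There were 2 such numbers among the controls (one for replicates 1, 2 and 5 and one for replicates 3 and 4) and 4 among the Glut1-KO libraries (one common to replicates 4 and 5), with 0 common to both groups. No label says that libraries of a group came from separate animals, so the p-values measure the spread between libraries.

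Total counts ran from 35.3 to 49.8 M per library. Lung and epithelial markers were high in every library, though the labels name no cell type of the tumour. Sftpc, a surfactant protein gene of alveolar type 2 cells, ranged from 6330 to 36600 CPM (counts per M, scaled by TMM). Scgb1a1, a gene of bronchiolar secretory (club) cells, ranged from 704 to 8730 CPM. Nkx2-1, a lung lineage transcription factor gene, was at 132 to 277 CPM, and Epcam, an epithelial adhesion gene, at 352 to 619 CPM. Ptprc, which encodes CD45, the antigen of the depleted cells, was low (2.3 to 10.1 CPM) and did not pass the threshold between the groups, at 2.76 ± 0.451 CPM in the controls and 7.92 ± 2.19 CPM in Glut1-KO (SD, n = 5, log2 fold change 1.47, limma unadjusted p = 0.000119, adjusted p = 0.23). The targeted gene Slc2a1 measured 118, 86.7, 92.6, 103 and 73.2 CPM in control replicates 1 to 5. In the libraries labelled Glut1-KO it measured 60.3, 42.5 and 34.6 CPM in the female replicates 1 to 3, all below the controls, and 92.4 and 103 CPM in the male replicates 4 and 5, within the range of the controls. Its log2 fold change (Glut1-KO minus control) was -0.62 (SE 0.29, n = 5 per group, limma adjusted p = 0.658, exact permutation p = 0.0952). For the 3 female Glut1-KO libraries against the controls it was -1.06 (limma adjusted p = 0.147), and among male libraries alone 0.06. Transcripts with and without the floxed exons are not separated by a count over the whole gene.

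The hexosamine pathway branches from glycolysis at fructose 6-phosphate. Gfpt1 and its paralogue Gfpt2 encode the enzymes that commit this sugar by adding the amino group of glutamine, the rate-limiting step. Gnpnat1 acetylates the product, Pgm3 moves its phosphate, and Uap1 joins it to UDP, which gives UDP-GlcNAc, the donor for N-glycans, hyaluronan and O-GlcNAc. Ogt transfers GlcNAc to serines and threonines of nuclear and cytosolic proteins, and Mgea5, also called Oga, takes it off again. Nagk phosphorylates GlcNAc set free when glycans are degraded and so returns it to the pathway, and Gnpda1 turns glucosamine 6-phosphate back into fructose 6-phosphate. In many cells this pathway is described as a sensor of glucose, glutamine and protein folding load. XBP1 and ATF6, transcription factors of the unfolded protein response, read DNA elements that hold the letters CCACG.

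Promoter windows (250 bases before to 50 after the start site, RefSeq, GRCm38.p6) were found for 7 of the 9 genes, in 8 windows, because Ogt had 2. Gnpnat1 and Gnpda1 were not matched. The 250 bases before the start are printed for 4 genes. These are the paralogues Gfpt1 and Gfpt2, whose levels lay farthest apart, and Pgm3 and Uap1. The latter pair had the highest Pearson correlation among the 9 genes over all 10 libraries. The sequences read 5′ to 3′ on the strand of the gene, and capitals mark CCACG or its reverse complement CGTGG. The regions are chr6:87042596-87042845 (plus strand) for Gfpt1, chr11:49793905-49794154 (plus) for Gfpt2, chr9:86571843-86572092 (minus) for Pgm3 and chr1:170174965-170175214 (minus) for Uap1.
Gfpt1: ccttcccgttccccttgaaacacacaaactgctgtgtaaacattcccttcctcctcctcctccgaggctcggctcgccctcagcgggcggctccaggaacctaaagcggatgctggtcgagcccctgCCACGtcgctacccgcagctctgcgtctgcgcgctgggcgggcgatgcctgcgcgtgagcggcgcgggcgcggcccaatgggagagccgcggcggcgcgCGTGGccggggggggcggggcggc
Gfpt2: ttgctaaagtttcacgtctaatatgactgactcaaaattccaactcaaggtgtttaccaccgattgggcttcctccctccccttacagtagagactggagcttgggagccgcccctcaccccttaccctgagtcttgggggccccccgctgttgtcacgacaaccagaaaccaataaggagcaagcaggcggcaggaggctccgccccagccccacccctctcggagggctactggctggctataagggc
Pgm3: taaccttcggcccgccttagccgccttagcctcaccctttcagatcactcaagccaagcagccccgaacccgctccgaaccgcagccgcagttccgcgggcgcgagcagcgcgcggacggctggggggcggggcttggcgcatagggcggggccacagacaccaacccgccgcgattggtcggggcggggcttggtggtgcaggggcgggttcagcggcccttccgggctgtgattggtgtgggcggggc
Uap1: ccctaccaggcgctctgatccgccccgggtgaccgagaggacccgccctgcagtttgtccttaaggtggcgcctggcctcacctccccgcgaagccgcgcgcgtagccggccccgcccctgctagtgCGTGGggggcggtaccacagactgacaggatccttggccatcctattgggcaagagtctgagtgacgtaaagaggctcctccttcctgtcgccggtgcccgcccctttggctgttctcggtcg
Pgm3, a stretch past the start site: caaagctgggCCACGtctgcgaggt

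In these windows CCACG, searched on both strands, occurred 2 times for Gfpt1 (its first base 123 and 24 bases before the start) and 1 time for Uap1 (123 bases before). For Pgm3 it occurred 1 time, beginning at base 24 of the transcript, in the stretch at chr9:86571805-86571829 (minus strand). The windows of Gfpt2, Ogt, Mgea5 and Nagk held no such letters. Of all 32851 promoter windows of this length, 32.8% held CCACG, so 3 of 7 genes is close to that share. The longer elements TGACGTGG, whose reverse complement holds CCACG, and ERSE, which is CCAAT and CCACG with 9 bases between them, had 0 matches in the 8 windows, against 0.676% and 0.119% of all windows. CACGTG, the E-box letters read by MYC and USF factors, also had 0 matches, against 7.15% of all windows. A match of letters is a description and not a binding site, and no match says only that the letters are not in the window.

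Between the groups, 0 of the 9 genes passed an adjusted p of 0.05 in limma, beside 0 of all 15922 genes tested (0%). At an unadjusted p under 0.05 there was 1 of 9, Nagk, where the background was 7.68% of all genes (1223), and 0 of 9 had groups that did not overlap, where 1.85% of all genes did not overlap. By edgeR's quasi-likelihood test 0 of 9 passed, beside 0% of all genes, and by DESeq2 0 of 9, beside 1.33% (210 of 15847). In the limma fit 4 of the 9 were higher and 5 lower in Glut1-KO. Their median log2 fold change was -0.04, beside -0.0049 for all genes tested. The direction of Gfpt2, Pgm3, Uap1, Ogt and Mgea5 changed under some settings, whereas Gfpt1, Nagk and Gnpda1 stayed above 0 and Gnpnat1 below 0 under every setting that gave them a value, though their sizes moved.

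**Figure D1:**
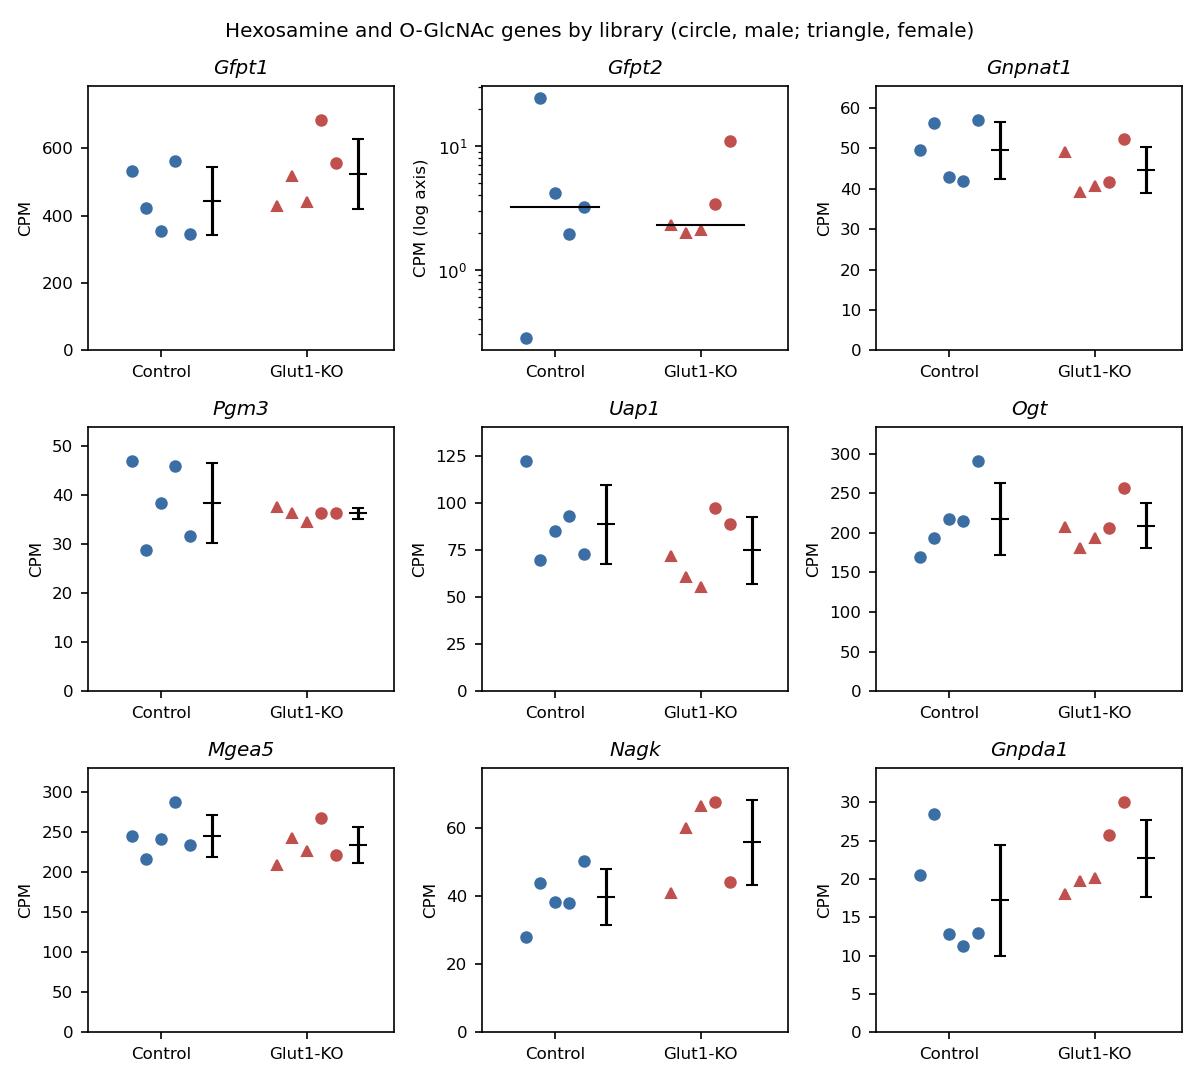
Level of each of the 9 genes in CPM in every library (y axis, linear from 0, except Gfpt2 on a log axis), by group (x axis). Circles are male and triangles female libraries, bars give mean ± SD (n = 5), and lines for Gfpt2 the medians. The groups overlap for all 9 genes.

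Gfpt1, the more abundant entry enzyme (ENSMUSG00000029992, chr6:87042846-87092197, plus strand, GRCm38), measured 533, 421, 354, 562 and 345 CPM in control replicates 1 to 5 and 427, 516, 439, 682 and 555 CPM in Glut1-KO replicates 1 to 5. The highest library was the male Glut1-KO replicate 4, 3 controls lay below all Glut1-KO libraries, and the groups overlapped. The means were 443 ± 100 and 524 ± 103 CPM (SD, n = 5 each). The log2 fold change was 0.25 (SE 0.18, 95% interval -0.15 to 0.65, limma adjusted p = 0.77, exact permutation p = 0.246), which is within the spread between libraries. It was 0.51 in the 7 male libraries alone and 0.09 for the 3 female Glut1-KO libraries against the controls.

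Gfpt2 (ENSMUSG00000020363, chr11:49794178-49838613, plus strand) was the least abundant and by far the most variable of the 9. It measured 0.278, 24.6, 4.2, 1.93 and 3.23 CPM in control replicates 1 to 5, an 88.4-fold range of CPM, and rested on 11 counts in replicate 1 and 1326 counts in replicate 2. In Glut1-KO replicates 1 to 5 it measured 2.31, 2, 2.09, 3.44 and 11.1 CPM. Apart from control replicates 1 and 2 and Glut1-KO replicate 5, the libraries lay between 1.93 and 4.2 CPM. The means were 6.85 ± 10.04 and 4.18 ± 3.89 CPM (SD, n = 5), lower in Glut1-KO, whereas the log2 fold change, taken from log values, was 0.11 (SE 0.98, 95% interval -2.06 to 2.28, limma adjusted p = 0.986, exact permutation p = 0.897). An interval this wide includes a 4-fold change in either direction. Without control replicate 2 and Glut1-KO replicate 5 together the log2 fold change was 0.51, and without control replicate 1 it was -0.72.

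The 2 libraries in which Gfpt2 was highest stood apart in several marker lists. Control replicate 2 and Glut1-KO replicate 5 had the highest summed level of the 10 fibroblast and smooth muscle markers (428 and 455 CPM, against 107 to 335 CPM in the other 8). They also had the lowest sums of 6 club cell markers (1920 and 1110 CPM, others 2270 to 10600 CPM), of 7 ciliated cell markers (10.3 and 14.1 CPM, others 22.4 to 258 CPM) and of 9 alveolar type 2 markers (24500 and 47300 CPM, others 50800 to 79100 CPM). Only 2 of the 10 fibroblast markers, the collagen genes Col1a1 and Col1a2, had their 2 highest values there (Col1a1 116 and 117 CPM, others at most 76.7 CPM). The other 8 did not, among them the proteoglycan gene Dcn (12.3 and 7.95 CPM, others 6.15 to 27.1 CPM) and the receptor gene Pdgfra (2.1 and 0.974 CPM, others 1.35 to 7.74 CPM), so the sum follows its abundant collagens. None of the 10 was at 0 in any library. Control replicate 1, with the lowest Gfpt2, had a fibroblast sum of 269 CPM, in the middle of the range. Proliferation markers were highest in control replicate 2 (650 CPM) but not in Glut1-KO replicate 5 (342 CPM, others 281 to 422 CPM). In bulk samples, fewer cells of a type and less RNA per cell cannot be told apart, and the part of these lists in the level of Gfpt2 was not tested.

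Of the middle steps, Gnpnat1 and Pgm3 varied least, 1.45-fold and 1.62-fold between the lowest and the highest library. Gnpnat1 (ENSMUSG00000037722, chr14:45376334-45404913, minus strand) measured 49.5, 56.4, 43, 42 and 56.9 CPM in the controls and 49.2, 39.2, 40.7, 41.7 and 52.4 CPM in Glut1-KO. Its means were 49.6 ± 7.09 and 44.6 ± 5.80 CPM, and 3 Glut1-KO libraries lay below all controls. This gave a log2 fold change of -0.15 (SE 0.13, 95% interval -0.44 to 0.14, limma adjusted p = 0.808, exact permutation p = 0.238).

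Pgm3 (ENSMUSG00000056131, chr9:86554377-86571842, minus strand) measured 46.8, 28.8, 38.4, 45.9 and 31.6 CPM in the controls and 37.5, 36.4, 34.5, 36.4 and 36.4 CPM in Glut1-KO. The Glut1-KO libraries lay inside the range of the controls, with an SD of 1.10 CPM against 8.13 CPM, around means of 36.2 and 38.3 CPM. The log2 fold change was -0.05 (SE 0.15, 95% interval -0.37 to 0.28, limma adjusted p = 0.959, exact permutation p = 0.714). The difference between the SDs was not tested.

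Uap1 (ENSMUSG00000026670, chr1:170141938-170174957, minus strand) measured 122, 69.7, 85.1, 93.1 and 73 CPM in the controls. In Glut1-KO it measured 72.1, 60.8 and 55.3 CPM in the female replicates 1 to 3 and 97.1 and 88.9 CPM in the male replicates 4 and 5. Only 2 of the 5 Glut1-KO libraries, both female, lay below all controls. The means were 88.5 ± 20.7 and 74.9 ± 17.9 CPM, with a log2 fold change of -0.25 (SE 0.20, 95% interval -0.68 to 0.18, limma adjusted p = 0.784, exact permutation p = 0.286). Among male libraries alone (5 and 2) the log2 fold change was 0.10, and for the 3 female Glut1-KO libraries against the controls it was -0.47 (limma adjusted p = 0.911 and 0.341).

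Over all 10 libraries, Uap1 had the highest correlation with Slc2a1 of the 9 genes. The library lowest in Slc2a1 (Glut1-KO replicate 3, 34.6 CPM) was lowest in Uap1 (55.3 CPM), and the library highest in Slc2a1 (control replicate 1, 118 CPM) was highest in Uap1 (122 CPM). Over the 10 libraries Pearson's r of log2 CPM was 0.896 and Spearman's rho 0.891. Without the 2 libraries farthest from the median of Slc2a1 r was 0.808, and over the 7 male libraries 0.85. Of 15921 genes ranked by r with Slc2a1, Uap1 was at rank 112 (0.703% of genes had an r at least as high). The other 8 ranged from -0.665 (Nagk) to 0.403 (Gnpnat1) over the 10 libraries. Nagk was at -0.354 without the same 2 libraries and at -0.621 over the 7 male libraries. Over all 10, 91.1% of genes had an r with Slc2a1 at least as high as that of Nagk. Over the 7 male libraries Pgm3 came near to Uap1 (r = 0.812, against 0.378 over all 10, rho 0.697), while Gnpnat1 was at -0.401. These values are a description, with no p, since libraries may share animals, all points share a library's depth and composition, and the low Slc2a1 libraries are the female ones, so that genotype, sex and name number cannot be told apart there.

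**Figure D2:**
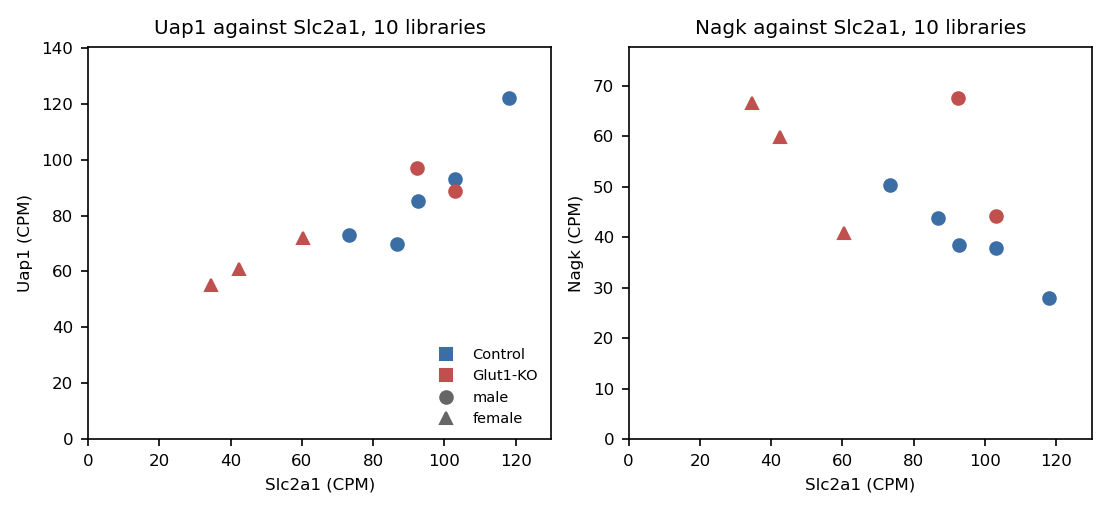
Level of Uap1 (left) and Nagk (right) against Slc2a1, each in CPM on linear axes from 0, with 1 point per library. Colours give the group and shapes the sex. The 3 female Glut1-KO libraries, lowest in Slc2a1 (34.6 to 60.3 CPM), include the 2 lowest Uap1 values (55.3 and 60.8 CPM).

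For the enzymes that write and erase O-GlcNAc the means of the groups lay close together. Ogt (ENSMUSG00000034160, chrX:101640060-101684351, plus strand) measured 169, 194, 218, 215 and 290 CPM in the controls and 208, 181, 194, 206 and 257 CPM in Glut1-KO. The 5 Glut1-KO libraries lay inside the range of the controls (means 217 ± 45.1 and 209 ± 28.8 CPM for control and Glut1-KO). They gave a log2 fold change of -0.04 (SE 0.15, 95% interval -0.38 to 0.29, limma adjusted p = 0.963, exact permutation p = 0.794). Ogt is X-linked, and the 3 female libraries (181 to 208 CPM) overlapped the 2 male Glut1-KO libraries (206 and 257 CPM).

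Mgea5 (ENSMUSG00000025220, chr19:45750259-45783837, minus strand) measured 245, 216, 241, 287 and 234 CPM in the controls and 209, 243, 227, 268 and 222 CPM in Glut1-KO. The means were 245 ± 26.1 and 234 ± 22.8 CPM, with 1 Glut1-KO library below all controls. The log2 fold change was -0.07 (SE 0.11, 95% interval -0.31 to 0.18, limma adjusted p = 0.905, exact permutation p = 0.492), the narrowest interval of the 9. Per kb of exon, the ratio of Mgea5 to Ogt ran from 0.755 to 1.35 in the controls (median 1.04) and from 0.807 to 1.25 in Glut1-KO (median 1.1), and was lowest in replicate 5 of each group.

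Of the salvage and breakdown enzymes, Nagk (ENSMUSG00000034744, chr6:83794982-83804018, plus strand) measured 28, 43.8, 38.4, 37.9 and 50.3 CPM in the controls and 40.8, 59.9, 66.5, 67.5 and 44.2 CPM in Glut1-KO. Glut1-KO replicates 2 to 4 lay above all controls, whereas replicates 1 and 5 lay among them, and 3 controls lay below all Glut1-KO libraries. The means were 39.7 ± 8.22 and 55.8 ± 12.5 CPM. The log2 fold change was 0.48 (SE 0.19), or 1.39-fold with a 95% interval of 1.04 to 1.87, and the unadjusted limma p was 0.0312. It did not pass adjustment over all genes (limma adjusted p = 0.612, exact permutation p = 0.0556, where 5 against 5 allows 0.00794). The adjusted p was 0.514 with edgeR and 0.326 with DESeq2. Against the same controls, the 3 female and the 2 male Glut1-KO libraries gave log2 fold changes of 0.49 and 0.47, and without control replicate 2 and Glut1-KO replicate 5 it was 0.60.

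Marker lists of other cells were set beside Nagk. Of the 12 immune markers listed 11 were found and 9 tested, of which 7 had a higher level in Glut1-KO (median log2 fold change 0.88, 0 past the threshold, 5 at an unadjusted limma p under 0.05). The summed level of the 11 was 34.3 to 39.1 CPM in the controls and 40.6 to 74.6 CPM in Glut1-KO, with no overlap. Cd68 alone gave 15.4 to 29 CPM over the libraries. Taken singly, 3 of the 9 tested markers had groups that did not overlap, beside 1.85% of all genes. Ptprc, given above, had the smallest p of the list. Cd3e, which defines T cells and was too low to be tested, was at 0 in the lowest library and at most 0.226 CPM. In Glut1-KO replicates 1 to 5 the immune sums were 74.6, 63.1, 57.4, 57.5 and 40.6 CPM, beside the Nagk levels given above. All 8 endothelial markers had a positive log2 fold change (median 0.67, 0 past the threshold, sums 106 to 398 CPM in the controls and 164 to 545 CPM in Glut1-KO). Of 15 immediate early and heat shock genes known to be induced by tissue dissociation, 14 had a lower level in Glut1-KO (median -0.35, 0 past the threshold, 6 at an unadjusted p under 0.05). Their summed level was 6410 to 8690 CPM in the controls and 4250 to 6940 CPM in Glut1-KO, and Atf3, a stress-induced transcription factor gene, had the smallest p (310 ± 73.7 and 160 ± 20.7 CPM, SD, n = 5, log2 fold change -0.94, limma adjusted p = 0.23).

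Of the airway and alveolar markers 0 passed the threshold. All 6 club cell markers had a negative log2 fold change (median -0.56, sums 1920 to 10600 CPM in the controls and 1110 to 7180 CPM in Glut1-KO), as had all 7 tested ciliated cell markers (median -0.72, sums 10.3 to 258 and 14.1 to 57.3 CPM). Of 9 alveolar type 2 markers 7 had a positive one (median 0.25, sums 24500 to 79100 and 47300 to 65700 CPM), as had 5 of 7 alveolar type 1 markers (median 0.13, sums 1300 to 2220 and 1420 to 2800 CPM). The sums of these 4 lists overlapped between the groups. The part of all these lists in the level of Nagk was not tested.

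Gnpda1 (ENSMUSG00000052102, chr18:38327535-38339003, minus strand) measured 20.5, 28.5, 12.9, 11.3 and 13 CPM in the controls and 18, 19.7, 20.1, 25.7 and 30 CPM in Glut1-KO. Control replicates 3 to 5 lay below all Glut1-KO libraries, while control replicates 1 and 2 lay among them. The means were 17.2 ± 7.23 and 22.7 ± 5.03 CPM. The log2 fold change was 0.43 (SE 0.26, 95% interval -0.15 to 1.01, limma adjusted p = 0.739, exact permutation p = 0.167). It was 0.76 in the 7 male libraries alone, 0.23 for the 3 female Glut1-KO libraries against the controls and 0.66 without control replicate 2. Control replicate 2 and Glut1-KO replicate 5, which stood apart in marker sums above, each held the highest Gnpda1 level of their group. Without both the log2 fold change was 0.55. The part of those markers in the level of Gnpda1 was not tested.

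**Figure D3:**
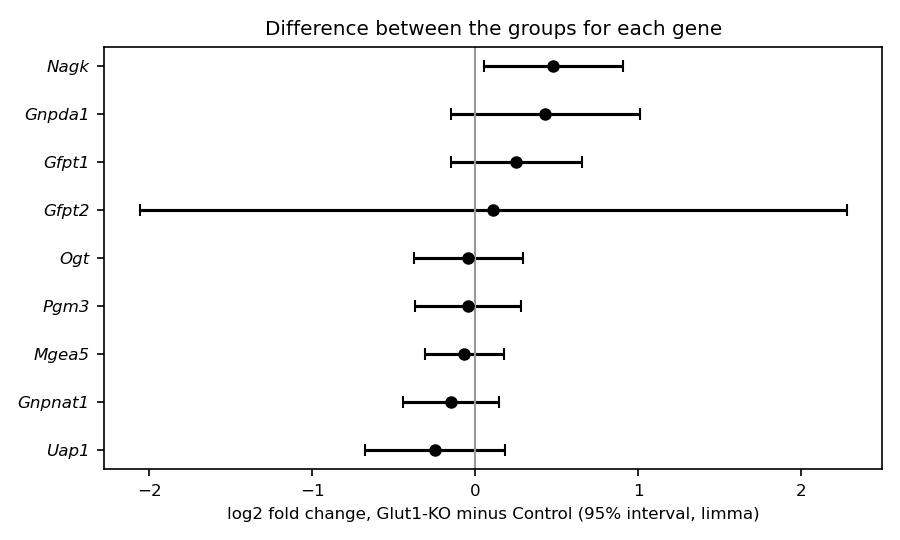
Log2 fold change of each gene, Glut1-KO minus control, with its 95% interval from limma (x axis), in order of size (n = 5 per group). The interval of Nagk (0.05 to 0.91) is the only one that does not include 0, before adjustment over all genes, and that of Gfpt2 is the widest.

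Inside Glut1-KO, the 3 female and the 2 male libraries did not overlap for 4 of the 9 genes, all higher in the males. These were Gfpt1 (427 to 516 CPM in females, 555 and 682 CPM in males), Gfpt2 (2 to 2.31 and 3.44 to 11.1 CPM), Uap1 (55.3 to 72.1 and 88.9 to 97.1 CPM) and Gnpda1 (18 to 20.1 and 25.7 to 30 CPM). Over all genes tested 40.8% did not overlap between these libraries, so the share of the 9 is close to the background. The 2 males share a name number, so sex and that number cannot be told apart.

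Levels of different genes were compared per kb of exon (union of the exons of all transcripts). Over the 10 libraries Gfpt1 was highest at 48.0 ± 10.4 CPM per kb (SD, n = 10) and above Mgea5 in 10 of 10 libraries. It was the highest of all 9 genes in 9 libraries, and in control replicate 5 Ogt exceeded it (36.1 against 34.2 CPM per kb). Mgea5 (27.8 ± 2.77) and Ogt (26.5 ± 4.47 CPM per kb) did not differ beyond their spread, with Mgea5 higher in 7 of 10. Uap1 followed at 20.4 ± 4.89 CPM per kb, below Ogt in 9 of 10 libraries. Nagk (10.2 ± 2.80) and Gnpnat1 (9.95 ± 1.40 CPM per kb) lay within each other's spread, with Nagk the higher in 3 of 10 libraries although its mean was higher. Those 3 were Glut1-KO replicates 2 to 4, and Nagk was above Gnpnat1 in 0 of the 5 controls. Pgm3 was at 8.30 ± 1.24 CPM per kb and Gnpda1 at 4.63 ± 1.52 CPM per kb, the former higher in 9 of 10 libraries. Gfpt2 was last, at 0.986 ± 1.31 CPM per kb, and below Gnpda1 in 10 of 10.

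The paralogues of the entry step were compared within each library. Per kb, Gfpt1 exceeded Gfpt2 between 9.49-fold (control replicate 2) and 1060-fold (control replicate 1, where Gfpt2 rests on 11 counts), with a median of 59.2-fold in the controls. In Glut1-KO the ratio ran from 27.9-fold (replicate 5) to 144-fold, with a median of 110-fold. The ranges of the groups overlapped.

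**Figure D4:**
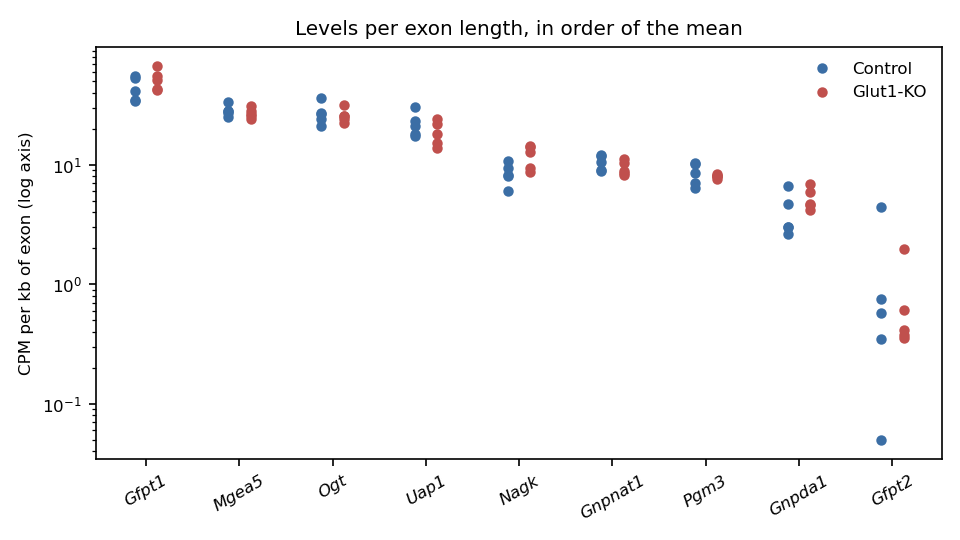
Level of each gene in CPM per kb of exon (y axis, log scale) in every library, with genes ordered by their mean (x axis) and colours giving the group. Gfpt1 is highest in 9 of 10 libraries (mean 48.0), and Gfpt2 is lowest in 10 of 10 (mean 0.986).

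Correlations between the 9 genes had both signs. Of the 36 pairs, 3 had a Pearson r of log2 CPM above 0.5 and 4 below -0.5 (n = 10 libraries, range -0.749 to 0.659, a description with no p, over points that share depth and composition). The highest was Pgm3 with Uap1, consecutive enzymes of the pathway (r = 0.659, rho = 0.685, and r = 0.868 over the 7 male libraries). Without the 2 libraries farthest from the median of Pgm3 its r was 0.485. When each pair was taken without the 2 libraries farthest from the median of 1 of its genes, other pairs were higher. Among them was Gfpt2 with Ogt (r = 0.584, libraries chosen by Gfpt2). Over all 10 libraries the lowest was Gfpt2 with Pgm3 (r = -0.749, rho = -0.491). This pair was at -0.202 without the 2 libraries farthest from the median of Gfpt2, which were control replicate 1 (lowest) and control replicate 2 (highest). It was at -0.803 over the males, which include both of these. Over the 7 males 5 of the 36 pairs were above 0.5 and 8 below -0.5, among them Gfpt2 with Uap1 (-0.817). Nagk ran against Uap1 (r = -0.636, rho = -0.43, and r = -0.123 without the 2 libraries farthest from the median of Uap1). It also ran against Pgm3 (r = -0.552, rho = -0.709, and r = -0.556 without the 2 farthest from the median of Pgm3). The libraries left out were not the same for these pairs.

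Among the genes around the pathway, 0 of any of the following lists passed the threshold in either direction. Of 9 other amino sugar genes 5 were higher and 4 lower in Glut1-KO (median log2 fold change 0.14). The smallest p among them was that of Eogt, which puts O-GlcNAc on secreted proteins (47.8 and 61.7 CPM in control and Glut1-KO, log2 fold change 0.36, SE 0.17, limma adjusted p = 0.675). Of 6 sialic acid synthesis and breakdown genes 3 were higher and 3 lower (median 0.03), led by Npl, the sialic acid lyase (0.773 and 1.16 CPM, log2 fold change 0.77, limma adjusted p = 0.68). Of 11 genes of GlcNAc transfer to N-glycans and lysosomal enzymes 5 were higher and 6 lower (median -0.03), led by Gnptab, which starts the mannose 6-phosphate tag (197 and 178 CPM, log2 fold change -0.16, limma adjusted p = 0.793). Hyaluronan, the other large consumer of UDP-GlcNAc, was represented by 5 tested genes, 1 higher and 4 lower (median -0.07). Its leading gene was the synthase Has3, with 6.68 ± 6.48 CPM in the controls and 2 ± 0.729 CPM in Glut1-KO (SD, n = 5, log2 fold change -1.03, limma adjusted p = 0.773).

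On the supply side, of 8 genes of glycolytic entry and glutamine supply 4 were higher and 4 lower in Glut1-KO (median log2 fold change 0.02), and Slc2a1 itself had the smallest p. Of 13 genes of the unfolded protein and ATF4 response, which is known to act on this pathway, 4 were higher and 9 lower (median -0.12). Hspa5, the chaperone BiP, led them with 1440 ± 217 and 1220 ± 221 CPM (SD, n = 5, log2 fold change -0.25, limma adjusted p = 0.745). Of 5 OGT partners 2 were higher and 3 lower (median -0.07), led by Hcfc1, a chromatin cofactor that OGT cleaves (190 and 175 CPM, log2 fold change -0.12, limma adjusted p = 0.842).

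**Figure D5:**
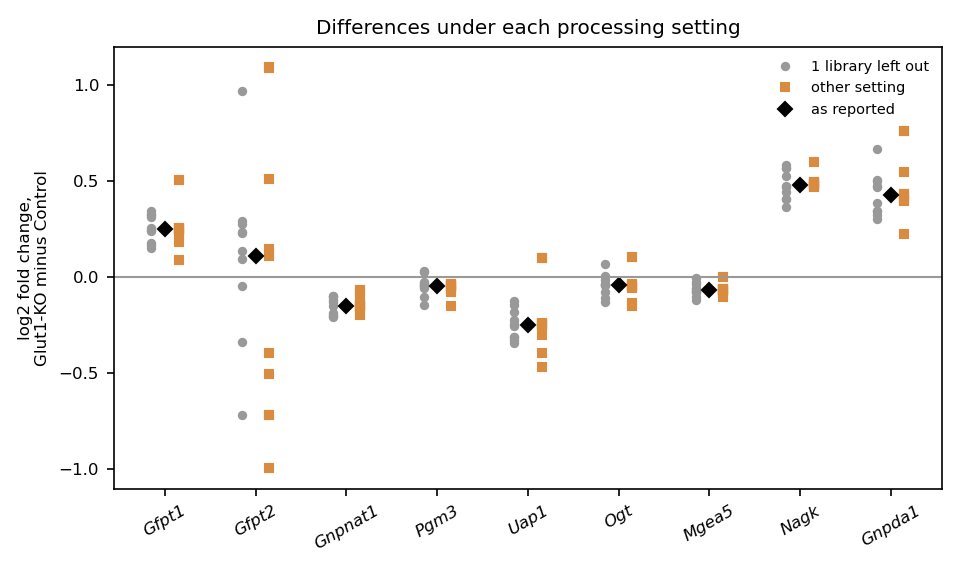
Log2 fold change of each gene, Glut1-KO minus control (y axis), as reported (diamond), with 1 library left out (grey circles) and under the other processing settings (orange squares). Nagk stays between 0.36 and 0.60, whereas Gfpt2 runs from -0.99 to 1.09.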

How the data were processed

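The authors macrodissected lung tumours, removed CD45-positive cells, prepared stranded mRNA libraries and sequenced single-end reads. Adapters were trimmed with Cutadapt and reads aligned to mm10 with HISAT2, and the submitters' processing notes also name featureCounts. Whether counting used strand, and which annotation, were not given in the sources used here. The deposited files hold raw counts per gene, 1 column per library, with no row for unassigned reads. A deposited table of log2 values was not used.

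In R 4.3.3, low genes were removed with filterByExpr of edgeR 4.0.16 (minimum count 10, minimum total 15), and the others scaled by TMM and fitted with limma 3.58.1 on voom values (prior count 0.5) with the group as the only term. P-values were 2-sided, adjusted by Benjamini-Hochberg over 15922 genes (threshold 0.05). Single genes also had an exact permutation test, 2-sided, which ran through the 252 ways to divide the libraries 5 and 5 (smallest p 0.00794). The study also names TMM, voom and limma. The fit was also run on simulated counts, drawn independently for each library with the same dispersion for every gene. That setting leaves out the possible sharing of animals, the sex imbalance and the unequal spread of genes in these data. Positions and exon lengths came from GENCODE M21 (GRCm38, the assembly mm10 names), which held 37693 of 39017 gene identifiers (96.6%).

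Alternatives were DESeq2 1.42.0, edgeR's quasi-likelihood test, other scalings and filters, sex, a replicate block, sums by name number and leaving out libraries. The genes described and all lists were chosen with earlier results of these data known. All 9 genes are named, and of each pathway list the genes past the threshold or else the 1 with the smallest p. The 3 genes most correlated with the gene of smallest p and with the most variable one are also named. Marker genes named were singled out after their values were seen. Leaving out control replicate 2 and Glut1-KO replicate 5 together was chosen after seeing the data.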

Additional observations from a re-analysis of the deposited data

Results flagged for a closer look

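Gfpt2 was the gene for which single libraries stood far from the rest of their group. In control replicate 2 it measured 24.6 CPM, where the nearest control had 4.2 CPM (gap over range 0.839, Dixon limit 0.71 for 5 values). In Glut1-KO replicate 5 it measured 11.1 CPM, where the nearest library of the group had 3.44 CPM (gap over range 0.841). Of 20 groups of values examined (9 genes and Slc2a1 in 2 groups) these 2 were past the limit, and chance gives about 1 in 20. On log2 CPM, a scale tried after seeing the data, neither was past it (0.398 and 0.683), and in the controls the gap at the low end, replicate 1, was the wider (0.428). The same 2 libraries had the highest summed fibroblast markers (428 and 455 CPM, a sum in which only Col1a1 and Col1a2 of the 10 markers were highest in both) and the lowest summed club cell markers (1920 and 1110 CPM), whose part in the level of Gfpt2 was not tested.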

How the results depend on the processing

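Under all 22 alternatives 0 of the 9 genes passed the threshold. Over all genes the count past it was 0 in limma, but 210 with DESeq2 (108 higher and 102 lower), 3 with sex as a covariate, 1 with male libraries only, 9 for female Glut1-KO libraries against all controls, 2 with counts summed by name number, and 0 to 1 when 1 library was left out (1 without control replicate 3). The cause was not tested. Slc2a1 turned to 0.061 with sex as a covariate and 0.06 in males only. It was -1.065 for female Glut1-KO libraries against all controls (limma adjusted p = 0.147). In the comparison of the whole groups it ran from -0.809 to -0.416 with 1 library left out.

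With sex as a covariate and in males only, Uap1 turned to 0.101 and 0.1, Ogt to 0.104 and 0.103, and Mgea5 to 0.002 and 0.001. With 1 library left out Uap1 ran from -0.345 to -0.126 (without control replicate 1; -0.145 without Glut1-KO replicate 3) and Mgea5 from -0.117 (without Glut1-KO replicate 4) to -0.007 (without control replicate 4). Without control replicate 2 and Glut1-KO replicate 5 together Uap1 was -0.397, Pgm3 -0.149 and Ogt -0.15, further below 0. Gfpt2 turned to -0.716 with edgeR, -0.716 with DESeq2, -0.503 for female Glut1-KO libraries and -0.995 with sums by name number. It rose to 1.092 with sex as a covariate and 1.088 in males only. With 1 library left out it ran from -0.719 (without control replicate 1) to 0.969, and was -0.046 without control replicate 4 and -0.34 without Glut1-KO replicate 5. Pgm3 ran from -0.147 to 0.034 (0.034 and 0.026 without control replicates 1 and 4) and Ogt from -0.128 to 0.068 (0.068 without control replicate 5, 0.007 without Glut1-KO replicate 2). Gfpt1 kept its direction but was 0.506 with sex as a covariate, 0.505 in males, 0.087 for females against all controls and 0.149 to 0.346 with 1 library left out (lowest without Glut1-KO replicate 4). Likewise Gnpda1 was 0.759, 0.758, 0.226 and 0.302 to 0.664 (highest without control replicate 2), and Gnpnat1 -0.068, -0.068, -0.197 and -0.206 to -0.097. Nagk kept 0.362 to 0.601 (lowest adjusted p 0.326, DESeq2).

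Replicate numbers were not taken to pair the samples. Between libraries of the same number, correlations of deviations from the group means ran from -0.132 to 0.197. Pairs of unlike number were not set beside them, so pairing was not tested. With the replicate block 0 genes passed and Gfpt2 was -0.393. Gfpt2 and Gnpda1 fell below an average TPM of 20 and had no value under that filter. The 11 counts of Gfpt2 in control replicate 1 limit its fold change.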

Other observations

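The genes whose levels followed Nagk most closely over the 10 libraries, of 15921 ranked by Pearson's r of log2 CPM, were Cela1 (r = 0.964), Rbfox2 (r = 0.963) and Cfl2 (r = 0.962). Cela1 encodes an elastase, Rbfox2 a splicing regulator and Cfl2 a cofilin that severs actin filaments. In limma their log2 fold changes between Glut1-KO and control were 1.22, 0.19 and 0.34, and none passed the threshold (adjusted p = 0.636, 0.731 and 0.644). Those that followed Gfpt2 most closely were Rad54l2 (r = 0.923, rho = 0.77), Apoh (r = 0.914, rho = 0.685) and H1fx (r = 0.909, rho = 0.745), at mean levels of 46.5, 3.21 and 0.774 CPM. The rank correlations were lower than Pearson's r for these 3. These are descriptions of 10 libraries, picked as the highest of all genes.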
